A study of Homo sapiens with 3 samples.

Results

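Epithelial cells hold to each other through adherens junctions, tight junctions and desmosomes, and a set of transcription factors named for the epithelial-mesenchymal transition is known for turning the genes of these junctions down. The genes of both sides were followed here in MM468 cells made resistant to paclitaxel. There were 51 such genes among the 46427 in the deposited table, chosen by symbol: 38 of epithelial junctions and their regulators, and 13 that mark or drive a mesenchymal state, among them 3 cadherins of other cell types (CDH2, CDH11 and CDH13). Adherens junctions are built on classical cadherins, which bind the cadherins of the next cell and, through catenins, the actin cytoskeleton. Tight junctions seal the space between cells with claudins, and desmosomes anchor keratin filaments through desmogleins, desmocollins and plakins.

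MM468 is MDA-MB-468, a triple-negative breast cancer line. The parental cells, labelled wild type, were untreated. MM468/PR cells survived exposure to paclitaxel, a taxane that stabilizes microtubules, at 2 to 320 nM. Each line was sequenced as 1 polyadenylated RNA library, so no test of a difference between lines was possible and no value has a replicate error. Neither the number of clones in the resistant line nor drug in the medium at harvest is given in the sources used here. The parental library held 32704885 counts and the MM468/PR library 43242628. Pairs of values below give parental MM468 first and MM468/PR second.

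Levels are given in TPM, which is per transcript length and allows genes to be compared within a library. Changes are ratios of counts after TMM normalization, which scales the libraries so that most genes are centred near no change. A gene was called higher or lower when it differed at least 2-fold, and the 95% interval beside a ratio is an exact binomial interval that covers counting error only. All changes rest on the same parental library, so an unusual value in that library would move the ratio of that gene. In bulk RNA, fewer cells of a type cannot be told apart from less RNA per cell. Whether genes were read in the same cells cannot be told either. All values are of RNA, and the proteins and junctions were not measured in these libraries.

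The label of the cells as epithelial was checked against 8 markers, and all 8 were read in both libraries, with a summed level of 8820 and 8126 TPM. KRT19, a keratin of simple epithelia, was the most abundant of them in parental MM468, at 2252 TPM, and KRT8, another such keratin, led in MM468/PR cells, at 2436 TPM. KRT14, a basal keratin, had 2347 and 474 counts and fell 7.63-fold, and KRT7 fell 2.24-fold, from 1733 to 965 TPM, a call lost under plain library size, at -0.94 on the log2 scale, and with the deposited FPKM and TPM values. Of 9 fibroblast markers, COL1A2, LUM, PDGFRB and THY1 were at 0 counts in both libraries, and the summed level of the list was 10.7 and 18.7 TPM. Its most abundant gene was COL1A1 in parental MM468 and FAP in MM468/PR cells, and FAP had 52 and 544 counts. Of the 5 with enough counts, 3 were called higher: FAP, COL3A1 with 2 and 21 counts, and DCN with 0 and 14. PDGFRA was the 1 called lower, 14.5-fold with 152 and 16 counts, a call lost with the deposited FPKM values. COL1A1 had 659 and 820 counts, a ratio of 0.807. The list is too short to set against the 34.3% of all genes that passed 2-fold (20.6% higher and 13.7% lower). Leukocyte markers summed to 8.56 and 2.79 TPM, mostly CD68, with CD3E at 0 in both libraries and PTPRC, the pan-leukocyte antigen CD45, at 24 and 44 counts. Endothelial markers summed to 2.72 and 0.56 TPM, and the highest of them in parental MM468, KDR, had 209 and 19 counts. The part of these non-epithelial transcripts in the results below was not tested.

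Most epithelial members were well expressed in both lines, and 34 and 32 of the 51 genes were at 10 TPM or more. Of the 51, 43 reached 10 counts in at least 1 library of the series, 6 were at 0 in both lines (CDH11, CDH13, DSG3, PPL, SNAI2 and PRRX1), and 2 had a few counts in MM468/PR and 0 in parental MM468, CLDN6 with 6 and ZEB2 with 8. The 38 epithelial members summed to 2907 and 2829 TPM and the 13 mesenchymal members to 21.2 and 26.0 TPM.

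In MM468/PR against parental MM468, 14 of the 43 genes passed 2-fold (32.6%), beside 34.3% of all 19561 genes with as many counts, and 29 did not. CDH2, DSC3, PKP1, ZEB1, TWIST1 and TWIST2 were called higher, as were 20.6% of all genes, and the call of PKP1 rests on 6 counts. CLDN3, CLDN7, CLDN8, CLDN23, PKP3, JUP, OVOL1 and FN1 fell, where 13.7% of all genes did. The share of members past 2-fold was thus near that of all genes, and the members leaned to lower values, with a median log2 fold change of -0.41 beside 0.07 for all genes. By role, 2 of 35 epithelial members rose and 7 fell, with a median of -0.41. Of 8 mesenchymal members, 4 rose and 1 fell. Their median of 0.23 lies in a gap between 4 positive and 4 negative values and describes no single gene. With the count minimum raised to 100 and the TMM factors computed anew, 10 of 38 members passed (26.3%), beside 24.3% of all genes so kept, and CLDN7 was then no longer among them. With counts under 3 set to 3, PKP1 no longer passed, and 13 members did, beside 33.8% of all genes.

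**Figure D1:**
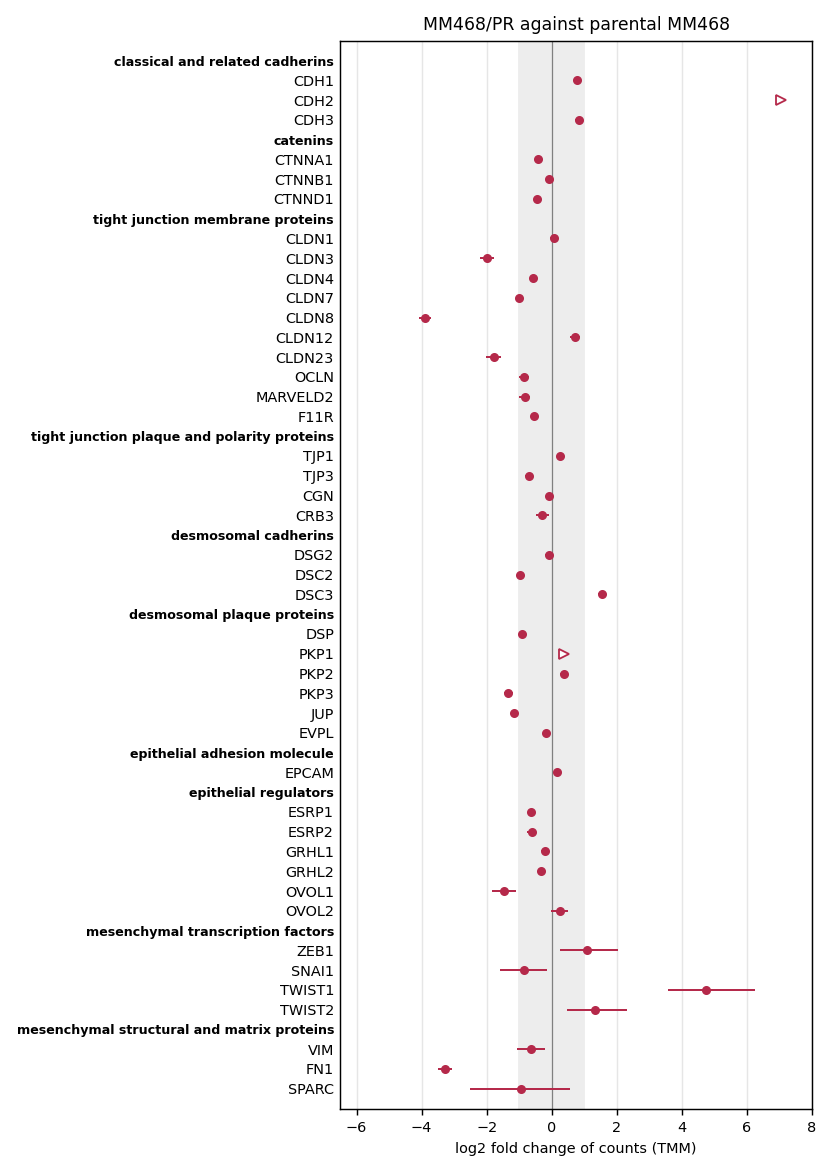
Log2 fold change of counts in MM468/PR against parental MM468 for the 43 genes that reached 10 counts, with 95% counting intervals as lines, the range within 2-fold in grey, and open triangles for lower bounds where the parental library had 0 counts. CLDN8 and FN1 lie farthest to the left, at -3.9 and -3.28, and CDH2 and TWIST1 farthest to the right.

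The scaling matters for this comparison. Scaled by library size alone, the median of all genes moves up by 0.22 on the log2 scale, and the split of members changes from 6 higher and 8 lower to 8 higher and 6 lower. CDH1 and CDH3 then pass 2-fold as higher, and CLDN7 and JUP no longer pass as lower. Members outside these 4 kept their side of 2-fold. The median of the members is then -0.19, beside 0.29 for all genes. TPM carries no TMM factor either, so a level in MM468/PR can stand above the parental level where the count ratio is under 1.

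The promoters of these genes are of interest because ZEB and SNAI proteins are known to bind the E-box letters CAGGTG in epithelial promoters. RefSeq promoters (GRCh38.p14) were at hand for 30 of the 51 genes. CAGGTG or its reverse complement CACCTG was looked for in the 250 bases before each start. Genes without such a promoter, CDH1, CDH3, EPCAM, CLDN8 and TWIST1 among them, were not searched. For CRB3, CGN and PRRX1 the start used lies downstream of the first base of the gene, so the window falls inside the gene. CAGGTG or CACCTG was in 7 of the 30 (23.3%), beside 17.5% of all 27305 promoters. CRB3, a polarity protein of the apical membrane, held 5 copies, and 33 promoters in the whole table held 4 or more. DSP and DSG2 held 2 each, and DSC2, OCLN, TJP1 and ZEB1 held 1 each. The first pair below is shown for its E-boxes, in capitals, and the second pair because CDH2 and DSC3 rose in MM468/PR cells, with no such letters in these windows. A match is a description of the letters and not a bound site. They lie at chr19:6464021-6464270 (plus strand), chr6:7541421-7541670 (plus), chr18:28177131-28177380 (minus) and chr18:31042743-31042992 (minus), each written 5′ to 3′ along its gene.
CRB3: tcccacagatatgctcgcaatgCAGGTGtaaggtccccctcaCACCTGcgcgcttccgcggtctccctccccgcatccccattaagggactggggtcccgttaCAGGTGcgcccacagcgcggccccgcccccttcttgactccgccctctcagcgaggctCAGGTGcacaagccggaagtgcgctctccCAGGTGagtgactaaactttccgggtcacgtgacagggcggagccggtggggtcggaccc
DSP: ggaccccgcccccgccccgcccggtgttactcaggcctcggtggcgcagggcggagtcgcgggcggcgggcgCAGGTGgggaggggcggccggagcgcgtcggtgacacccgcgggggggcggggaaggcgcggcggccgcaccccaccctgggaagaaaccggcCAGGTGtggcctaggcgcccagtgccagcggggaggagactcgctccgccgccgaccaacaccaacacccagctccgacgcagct
CDH2: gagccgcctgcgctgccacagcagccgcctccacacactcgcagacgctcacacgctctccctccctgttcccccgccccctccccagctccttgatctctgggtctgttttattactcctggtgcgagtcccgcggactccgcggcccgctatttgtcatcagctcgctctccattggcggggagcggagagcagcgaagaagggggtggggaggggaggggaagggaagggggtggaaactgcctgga
DSC3: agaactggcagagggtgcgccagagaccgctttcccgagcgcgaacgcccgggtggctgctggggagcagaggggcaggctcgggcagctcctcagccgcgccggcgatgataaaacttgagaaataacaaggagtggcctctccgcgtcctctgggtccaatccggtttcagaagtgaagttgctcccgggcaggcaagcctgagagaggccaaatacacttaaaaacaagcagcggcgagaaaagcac

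The 2 epithelial members with printed E-boxes did not pass 2-fold. CRB3, with the most copies, was at 39.2 and 39.6 TPM, and its count ratio to parental MM468 was 0.819 (0.73 to 0.92). DSP, the plakin that ties desmosomes to keratins, was at 130 and 88.2 TPM, 1.87-fold below parental MM468 (1.83 to 1.91).

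RNA of E-cadherin was kept in the resistant line. CDH1, which encodes it and lies at chr16:68737292-68835537 in GRCh38, had 3364 and 8919 counts, or 47.3 and 102 TPM. The MM468/PR library was at 1.72 times the parental level (1.65 to 1.79), under the 2-fold line by TMM and just over it by library size alone or with the deposited TPM. CDH3, P-cadherin of basal epithelial cells, ends 3520 bases before CDH1 on the same chromosome. It had 1164 and 3219 counts, or 20.5 and 49.6 TPM, and stood at 1.79 times parental MM468 (1.68 to 1.92), again over the line by library size alone or with the deposited FPKM and TPM.

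RNA of N-cadherin was read in MM468/PR cells and not in the parental cells. CDH2, which encodes the cadherin of neural and mesenchymal cells, had 0 and 618 counts. Set against 3 counts, the number that a count of 0 allows, its ratio to parental MM468 was 133.6. The counting interval of the ratio to parental MM468 starts at 108, and it covers counting error only. At 8.45 TPM it made up 5.29% of the summed level of CDH1, CDH2 and CDH3 in MM468/PR, where CDH1 made up 63.7%. CDH2 was 1 of 99 protein-coding genes with 0 counts in 1 of the 2 libraries and 100 or more in the other, and 15 of these had 1000 or more. Of 166 ribosomal, proteasome, RNA polymerase II and initiation factor genes, 4 were at 0 in at least 1 library, and 3 of these were at 0 in both. Whether a 0 stands for no RNA was not tested. The remaining listed cadherins, CDH11 of mesenchymal cells and CDH13, which has no cytoplasmic tail, were at 0 in both.

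CTNNB1, CTNND1 and CTNNA1, of the catenins that link cadherins to actin, stayed within 2-fold. CTNNB1 (β-catenin) was at 249 and 301 TPM, and its count ratio to parental MM468 was 0.953 (0.932 to 0.975), with a log2 value that turned positive, at 0.15, by library size alone. CTNND1 (p120-catenin), which stabilizes cadherins at the membrane, was at 160 and 146 TPM, with a count ratio of 0.738 (0.721 to 0.754). CTNNA1 (α-catenin) had 3400 and 3945 counts, a ratio of 0.752 (0.718 to 0.788).

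Among the claudins, which form the seal of the tight junction, CLDN8, CLDN3, CLDN23 and CLDN7 fell. CLDN8, a claudin of tight epithelia at chr21:30214006-30216097, had 4039 and 416 counts, or 131 and 10.9 TPM, and fell 15-fold (13.5 to 16.6). Of the summed level of the 8 claudin members, CLDN8 thus went from 17.4% to 2.36%. CLDN3, a sealing claudin common in breast epithelium, had 932 and 362 counts, or 49.4 and 15.6 TPM, and fell 3.97-fold (3.51 to 4.5). CLDN23 had 650 and 292 counts and fell 3.43-fold (2.99 to 3.95).

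The most abundant claudin member in both lines was CLDN7, at 329 and 203 TPM, with 43.9% and 44.0% of the level of the 8 claudins. Its counts were 7546 and 5760, a 2.02-fold fall (1.95 to 2.09) whose interval includes 2-fold. The call was lost under 7 of 11 alternatives: plain library size, the other count minimums (none, 100 counts, a count in all 3 libraries) and the deposited FPKM and TPM values. CLDN4, which lies 60725 bases from CLDN3 on chromosome 7, did not pass 2-fold and was at 167 and 142 TPM, with a count ratio of 0.675 (0.647 to 0.705).

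The other claudin members did not pass 2-fold by TMM or had too few counts. CLDN1, the claudin of the epidermal barrier, had 1791 and 2883 counts, a ratio of 1.04 (0.984 to 1.11). CLDN12 had 937 and 2371 counts, at 1.64 times parental MM468 (1.52 to 1.77), and passed with TPM at a pseudocount of 0.1. Exons of CLDN12 overlap those of GTPBP10 and CDK14 on the same strand, and reads there could have been split between genes. CLDN6, an embryonic claudin, had 0 and 6 counts.

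**Figure D2:**
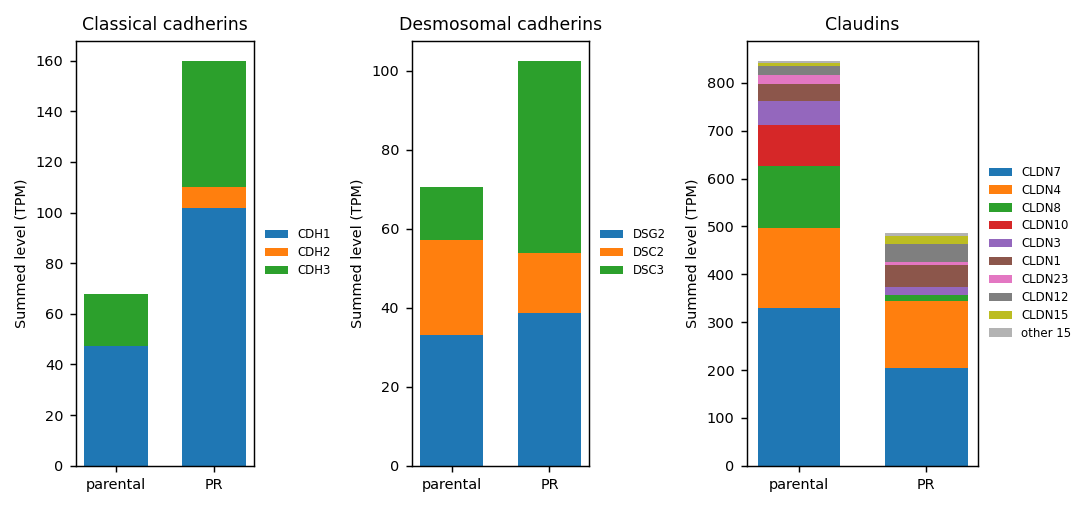
Summed level in TPM, stacked by gene, of the classical cadherins, the desmosomal cadherins and the claudin family in the parental line and the line labelled PR (1 library each, bars start at 0). The CDH2 and DSC3 segments widen in MM468/PR cells, while the CLDN8 segment shrinks from 131 to 10.9 TPM.

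Tight junction membrane members other than claudins stood below parental MM468 without passing 2-fold. OCLN (occludin) had 1291 and 1107 counts and was 1.8-fold lower in MM468/PR cells (1.66 to 1.95). MARVELD2 (tricellulin), which seals corners where cells meet, neighbours OCLN on chromosome 5 and had 929 and 804 counts, 1.78-fold lower (1.62 to 1.96). F11R, the junctional adhesion molecule JAM-A, was at 116 and 100 TPM, 1.45-fold lower by counts (1.41 to 1.49). Of the 10 membrane members that reached 10 counts, 8 had a negative log2 fold change, with a median of -0.84, beside 0.07 for all genes.

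Among the members, the genes of plaque proteins under the tight junction did not pass 2-fold. TJP1 (ZO-1), the scaffold that binds claudins and occludin to actin, was at 26.5 and 39.7 TPM, with a count ratio to parental MM468 of 1.19 (1.14 to 1.25). TJP3 (ZO-3) was at 44.5 and 34.1 TPM, 1.63-fold lower by counts (1.53 to 1.74). CGN (cingulin), another actin-linked plaque protein, was at 27.8 and 32.9 TPM, with a count ratio of 0.947, which turns to the other side of 1 by library size alone.

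Of the desmocollin pair, DSC3 rose in MM468/PR cells while DSC2 did not. DSC2 and DSC3 are adhesion proteins of the desmosome, side by side on chromosome 18 with 16097 bases between them. DSC3 (chr18:30989365-31042742) had 1511 and 6766 counts, or 13.4 and 48.7 TPM, and rose 2.9-fold (2.75 to 3.07). DSC2 had 4290 and 3348 counts, a level 1.98-fold below parental MM468 (1.89 to 2.07), just under the 2-fold line. DSC3 thus went from 35.9% to 76.3% of the summed level of the pair. DSG2, the desmoglein of simple epithelia, was within 2-fold at 33.1 and 38.6 TPM, and DSG3, a desmoglein of stratified epithelia, was at 0.

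Of the desmosomal plaque genes, those of plakoglobin and plakophilin 3 fell in MM468/PR cells. JUP (plakoglobin), a catenin shared with adherens junctions, had 9354 and 6476 counts, or 193 and 108 TPM. It fell 2.23-fold (2.16 to 2.3), a call that was lost under plain library size and with the deposited FPKM and TPM values. PKP3 had 2057 and 1261 counts, or 49.4 and 24.6 TPM, and fell 2.52-fold (2.34 to 2.7), though its log2 value was -0.98 with TPM and a pseudocount of 1. PKP2, a plakophilin of simple epithelia and heart, had 1639 and 3298 counts, a ratio of 1.3 (1.23 to 1.39), and did not pass 2-fold.

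PKP1, the plakophilin of stratified epithelia, was rare in both lines. It had 0 and 6 counts, and the counting interval of its ratio starts at 0.764 and so includes no change. With the count minimum applied to these 2 libraries alone it was not kept. The plakin EVPL (envoplakin) did not pass 2-fold at 49.4 and 54.3 TPM, and PPL (periplakin), its partner, was at 0 counts in both.

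EPCAM, a membrane glycoprotein of epithelial cells, was the most abundant of the 51 genes in each line, at 565 and 788 TPM. Its count ratio to parental MM468 was 1.12 (1.09 to 1.14), within 2-fold. The regulators of the epithelial state also stayed mostly within it. GRHL1 and GRHL2, grainyhead transcription factors that activate junction genes, were at 57.4 and 62.5 TPM and at 56.2 and 56.1 TPM. ESRP1, a splicing factor of epithelial isoforms, had 5461 and 5409 counts and was 1.56-fold lower in MM468/PR cells (1.5 to 1.62). Its relative ESRP2 was at 25.1 and 18.9 TPM, 1.54-fold lower by counts (1.44 to 1.64).

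OVOL1 was the regulator that fell by counts. It encodes a zinc finger protein known to repress mesenchymal factors, and had 211 and 117 counts, or 4.72 and 2.09 TPM. MM468/PR was 2.78-fold lower than parental MM468 (2.21 to 3.52), and the call was lost with the deposited FPKM and TPM at a pseudocount of 1, at -0.70 and -0.89 on the log2 scale. OVOL2, its relative, had 235 and 429 counts, with a ratio to parental MM468 of 1.18 (1.01 to 1.39).

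Among the mesenchymal transcription factors, TWIST1 stood out in MM468/PR cells. TWIST1, a basic helix-loop-helix factor at chr7:19113047-19117636, had 6 and 250 counts, or 0.234 and 8.51 TPM. It rose 26.6-fold, with an interval from 12.2 to 74.3 that reflects the 6 parental counts. TWIST2, its close relative, had 15 and 59 counts and rose 2.54-fold (1.43 to 4.84), a call lost with FPKM and TPM at a pseudocount of 1.

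The ZEB and SNAI factors, which repress CDH1, were low. ZEB1 had 16 and 53 counts, or 0.160 and 0.423 TPM, 2.14-fold higher in MM468/PR cells (1.21 to 4.03), a call also lost with FPKM and TPM at that pseudocount. ZEB1-AS1, an antisense RNA that shares 366 exon bases with it, had 101 and 290 counts, and whether strand was used in counting is not given in the sources used here, so its reads and those of ZEB1 may not be separate. SNAI1 had 41 and 35 counts and did not pass 2-fold. ZEB2 had 0 and 8 counts, and SNAI2 and the homeobox gene PRRX1 were at 0. Together the 7 factors summed to 2.72 and 12.6 TPM, of which TWIST1 made up most in MM468/PR.

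The structural and matrix members, VIM, FN1 and SPARC, did not rise. VIM (vimentin), the intermediate filament of mesenchymal cells, had 107 and 106 counts, or 3.85 and 3.09 TPM, 1.56-fold below parental MM468 (1.18 to 2.06). FN1 (fibronectin), a matrix glycoprotein, had 1744 and 276 counts, or 14.4 and 1.81 TPM, and fell 9.74-fold in MM468/PR cells (8.58 to 11.1). SPARC, another matrix protein, had 10 and 8 counts, too few to resolve a 2-fold change: its ratio to parental MM468 had an interval from 0.178 to 1.46.

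Other genes of the same structures were read from lists by function, and their counts stand beside the 34.3% of all genes that passed 2-fold (20.6% higher and 13.7% lower). Of 5 further claudins with enough counts, 2 rose and 2 fell, a list too short to set against that share. CLDN10, an ion-selective claudin, had 2710 and 55 counts and fell 75.8-fold (58.2 to 101). Its level went from 85.4 to 1.22 TPM, from 10.1% of the whole claudin family in parental MM468 to 0.25% in MM468/PR. CLDN15 had 181 and 684 counts and rose 2.45-fold. CLDN7 held the largest share of the family in both lines, with 38.9% and 41.9% of its summed TPM.

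Of 5 further cadherins with enough counts, CDH15 rose with 0 and 18 counts and CDH23 fell with 17 and 2, and none with 100 counts passed 2-fold. Of 8 nectins and adherens junction scaffolds, 2 rose and 3 fell (62.5%, beside 34.3% of all genes), and those that rose, CTNNA3 and CTNND2, had 0 counts in parental MM468 and 21 and 11 in MM468/PR. VCL (vinculin), which reinforces adherens junctions under tension, had 11051 and 3654 counts and fell 4.66-fold in MM468/PR cells (4.49 to 4.84). PLEKHA7 and NECTIN4, of the nectin-based part of these junctions, fell 2.38-fold and 2.37-fold, calls lost with the deposited FPKM and TPM values. Of 8 further tight junction genes, JAM2 and ILDR2 were called higher and 1 fell (37.5% in all). JAM2 had 4 and 17 counts, with an interval from 0.899 to 11.3 that includes no change, and ILDR2 had 0 and 18 counts. These 6 genes of low count were named after their values were seen. CGNL1 (paracingulin), the relative of CGN, had 468 and 81 counts and fell 8.9-fold (7.02 to 11.4). PERP, a desmosome protein and the 1 of 3 further desmosome genes to pass, had 12479 and 5773 counts and fell 3.33-fold. Among 14 polarity genes, 3 rose, 1 fell and 10 stayed within 2-fold, so that 28.6% passed, beside 34.3% of all genes. PARD6G rose 2.34-fold, a call lost with FPKM, and PARD6A fell 2.1-fold, a call lost under plain library size and with FPKM and TPM.

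TGF-β is the best known inducer of the transition. Of 14 pathway genes, 1 was called higher and 4 lower in MM468/PR cells (35.7%, beside 34.3% of all genes), with a median of -0.40 beside 0.07. TGFB2, a ligand, had 7412 and 1963 counts and fell 5.82-fold. LTBP1, which holds the latent ligand in the matrix, had 1746 and 1018 counts and fell 2.64-fold (2.45 to 2.86), a call lost with FPKM. SMAD3, a signal transducer of the pathway, had 1775 and 1193 counts and fell 2.29-fold, a call lost under plain library size and with FPKM and TPM. TGFBI, a target, had 80 and 26 counts and fell 4.72-fold (3.02 to 7.7). SMAD4, the shared mediator, which this line is known to have lost, had 16 and 104 counts, under 1 TPM in both libraries. It was called higher by the count ratio, 4.2-fold (2.48 to 7.65). What these few reads stand for was not tested, so the call is not read as a rise of the gene. The calls of TGFBI and SMAD4 were lost with FPKM and TPM at a pseudocount of 1.

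The remaining mesenchymal genes moved both ways: 4 of 15 rose and 4 fell in MM468/PR cells (53.3%, beside 34.3% of all genes), with a median of -0.16 beside 0.07. S100A4, a calcium-binding protein of motile cells, had 1679 and 101 counts and fell 25.6-fold (21 to 31.7). CD44, the hyaluronan receptor, went from 762 to 182 TPM and fell 5.37-fold, and TAGLN (transgelin), an actin-binding protein, fell 5.83-fold. AXL, a receptor tyrosine kinase, went the other way with 88 and 1243 counts, a rise of 9.15-fold (7.37 to 11.5). LOX, which crosslinks collagen, had 103 and 702 counts and rose 4.42-fold (3.59 to 5.49).

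Of 14 further epithelial genes, 1 rose and 3 fell in MM468/PR (28.6%, beside 34.3% of all genes), with a median of -0.56 beside 0.07. MUC1, an apical mucin, had 5107 and 1550 counts and fell 5.08-fold (4.8 to 5.38). ELF5, a transcription factor of luminal progenitors, had 88 and 20 counts and fell 6.74-fold, a call lost with FPKM. AP1M2, of the epithelial clathrin adaptor, fell 2.18-fold, a call lost under plain library size and with FPKM and TPM.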

How the data were processed

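RNA of each line was sequenced as 1 library, prepared per the labels with a stranded mRNA kit and grouped by its label (parental MM468 or MM468/PR). The submitters' processing notes name Trimmomatic 0.39, HISAT2 2.2.1, StringTie 2.2.1 and GRCh38. The counting program, its strand setting and the annotation release are not given in the sources used here. The authors deposited read counts per gene, not normalized, beside FPKM and TPM values that they computed from the same libraries.

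The count analysis used edgeR 4.0.16 under R 4.3.3. Genes with 10 or more counts in at least 1 of the 3 libraries of the series were kept, TMM factors were computed over these 3 (0.948 for parental MM468 and 1.11 for MM468/PR), and log2 fold changes were taken with a prior count of 0.125. The third library entered these steps only, and its own results and those of a few genes of the further lists are not reported here. No test was possible with 1 library per line, so a change of at least 2-fold was called. A count of 0 was taken to allow up to 3 counts, which is 0.0968 CPM in parental MM468 and 0.0628 CPM in MM468/PR. No fold is given where both libraries had 3 counts or fewer. Each 95% interval comes from the exact binomial share of 1 count in the sum of both, rescaled by library, and holds no biological variation. The calculation was tested on simulated data. Promoters and gene positions are from RefSeq (GRCh38.p14), and overlaps of exons from GENCODE on the same assembly.

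The members and the other gene lists were chosen with earlier results of these data known. All 51 members are named, and from each other list up to 5 genes that passed 2-fold against parental MM468 and had 100 or more counts in some library, in order of the size of the change, and genes of the marker lists. The choices varied were the normalization (size factors of DESeq2 1.42.0, plain library size, TMM from the libraries compared), a prior count of 2, other count minimums, the deposited FPKM and TPM values, and thresholds of 4-fold and 1.5-fold. Setting counts under 3 to 3 was added after the data were seen.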

Additional observations from a re-analysis of the deposited data

How the results depend on the processing

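No paired analysis was possible because each line had 1 library. No member past 2-fold changed direction under the alternatives that gave it a value, and of 465 fold changes of members under alternatives 312 stayed within the counting interval. Of the members, 14 passed 2-fold in MM468/PR against parental MM468, 9 with the deposited FPKM and 9 with the deposited TPM (pseudocount of 1), 5 at 4-fold and 27 at 1.5-fold. The members lost with FPKM were CLDN7, PKP1, JUP, OVOL1, ZEB1 and TWIST2, and with TPM also PKP3. CDH3 was gained with FPKM, CDH1 and CDH3 with TPM, and CLDN12 too, at a log2 value of 1.03, with a TPM pseudocount of 0.1. CDH2, CLDN3, CLDN8, CLDN23, DSC3, TWIST1 and FN1 kept the call under each alternative of scaling, prior count or count minimum that gave them a value. With TMM and the count minimum taken from these 2 libraries alone, 13 of 42 passed, and PKP1 was the member not kept. Of all genes, 6716 passed, 10905 with no count minimum, 3383 with a minimum of 100 counts, 2256 with FPKM, 3671 with TPM, 3032 at 4-fold and 10459 at 1.5-fold. A pseudocount of 1 draws genes of low level toward no change, by its construction. By library size alone, 70.8% of called genes were higher, where TMM gave 60.0%. With TPM this share was 71.2% at a pseudocount of 1 and 75.0% at 0.1, and the members split into 5 higher and 4 lower, and into 8 and 6. Low counts limit ZEB1, SNAI1, TWIST1 in parental MM468, PKP1 and SPARC, whose intervals are wide. Under library size alone, 5 of 43 members changed sign, each from a value nearer 0 than the shift of all genes. The cause of the other shifts was not tested.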
